A study of Homo sapiens with 6 samples.

Results

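The Hippo pathway and the genes that its effectors YAP and TAZ control were examined in sorafenib-resistant and control MHCC97H cells. The set comprised 34 genes, chosen by symbol with earlier results of these data known. All 34 were found among the 19202 genes counted. MHCC97H is a human hepatocellular carcinoma line selected for its capacity to metastasise. Sorafenib, a drug for advanced liver cancer, blocks several kinases. The control group was MHCC97H cells with the phenotype sorafenib sensitive, and the resistant group was MHCC97H cells of the SR label, sorafenib resistant. Each group had 3 RNA-seq libraries. The sources used here do not state how resistance was obtained, whether the resistant cells are 1 clone, or whether drug was in the medium at harvest.

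In the Hippo pathway, the kinases STK4 and STK3 (MST1 and MST2), with their adaptor SAV1, activate the kinases LATS1 and LATS2, which work with MOB1A or MOB1B. LATS kinases phosphorylate YAP (gene YAP1) and TAZ (gene WWTR1), which are then held in the cytoplasm or degraded. Unphosphorylated YAP and TAZ enter the nucleus, bind TEAD transcription factors and switch on targets such as CTGF, CYR61 and ANKRD1. The pathway limits liver size, and YAP is often active in liver cancer. Phosphorylation and location decide the activity of YAP and TAZ, and RNA counts measure neither.

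Levels are given as CPM, the count of a gene over the TMM-scaled library total in units of 1e6, with mean ± SD and n = 3 libraries a group. Differences are log2 fold changes (log2FC), resistant over control, with a standard error (SE), from edgeR's quasi-likelihood test with Benjamini-Hochberg adjustment over the 10804 genes that passed a filter on low counts. A gene is called at an adjusted p under 0.05. Whether replicates came from separate cultures is not in the labels, and the p-values measure only how far these libraries spread, which may be technical. Libraries held 1913469 to 5345272 counts, fewest in control replicate 1. The epithelial keratin KRT8 was at 1010.4 to 1401 CPM and the liver factor HNF4A at 36.0 to 44.9 CPM, while the epithelial marker EPCAM reached at most 5.14 CPM and the hepatocyte genes TTR and APOA1 at most 1.17 and 0.47 CPM. The hepatocyte genes ALB (13.4 to 20.8 CPM in control, 1.62 to 8.39 CPM in resistant libraries) and APOB (19.1 to 29.8 and 2.44 to 12.0 CPM) were called lower, with log2FC of -1.62 and -1.47 (adjusted p = 0.00113 and 0.00108 in edgeR). Their part in the results below was not tested. Immune markers summed to 5.14 to 12.0 CPM over 7 genes. Fibroblast markers summed to 12.2 to 44.0 CPM over 7 genes, highest in resistant replicate 3 and next in control replicate 3 (38.4 CPM). The collagen gene COL1A2 was at 13.9 CPM in resistant replicate 3 and at most 4.11 CPM elsewhere, while LUM was highest in control replicate 3 (20.2 CPM). The 6 endothelial markers summed to 136 CPM in resistant replicate 3 and to 40.6 to 68.6 CPM in the other libraries. In resistant replicate 3, VWF was at 26.2 CPM and CDH5 at 19.2 CPM, while the other libraries had at most 1.76 and 3.09 CPM. For THBS1 the log2FC is given with and without that library. For DLC1 and FSTL1 the CPM there and in the other libraries is given, without a fit that leaves it out.

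Among the 34 genes, 6 were higher in resistant cells (ANKRD1, FRMD6, MOB1B, AJUBA, STK4 and THBS1) and 2 were lower (MAP4K4 and VGLL4). A further 24 were not called, and AMOT and DLC1 did not pass the filter on low counts. The 8 called genes were 25.0% of the 32 tested, against 24.1% of all tested genes, so the share called was near the background. By direction, the background was 11.7% higher and 12.3% lower. The median log2FC was 0.10 over the 32 tested genes and -0.0060 over all tested genes. In 10 of the 32 the libraries of the groups did not overlap, against 38.1% of all tested genes. YAP1, WWTR1 and the 4 TEAD genes were not called, nor were CTGF and CYR61. MAP4K4, VGLL4, STK4, FRMD6 and ANKRD1 were called under each of the 17 alternatives run. THBS1, MOB1B and AJUBA were each lost in at least 1 alternative, given below.

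**Figure D1:**
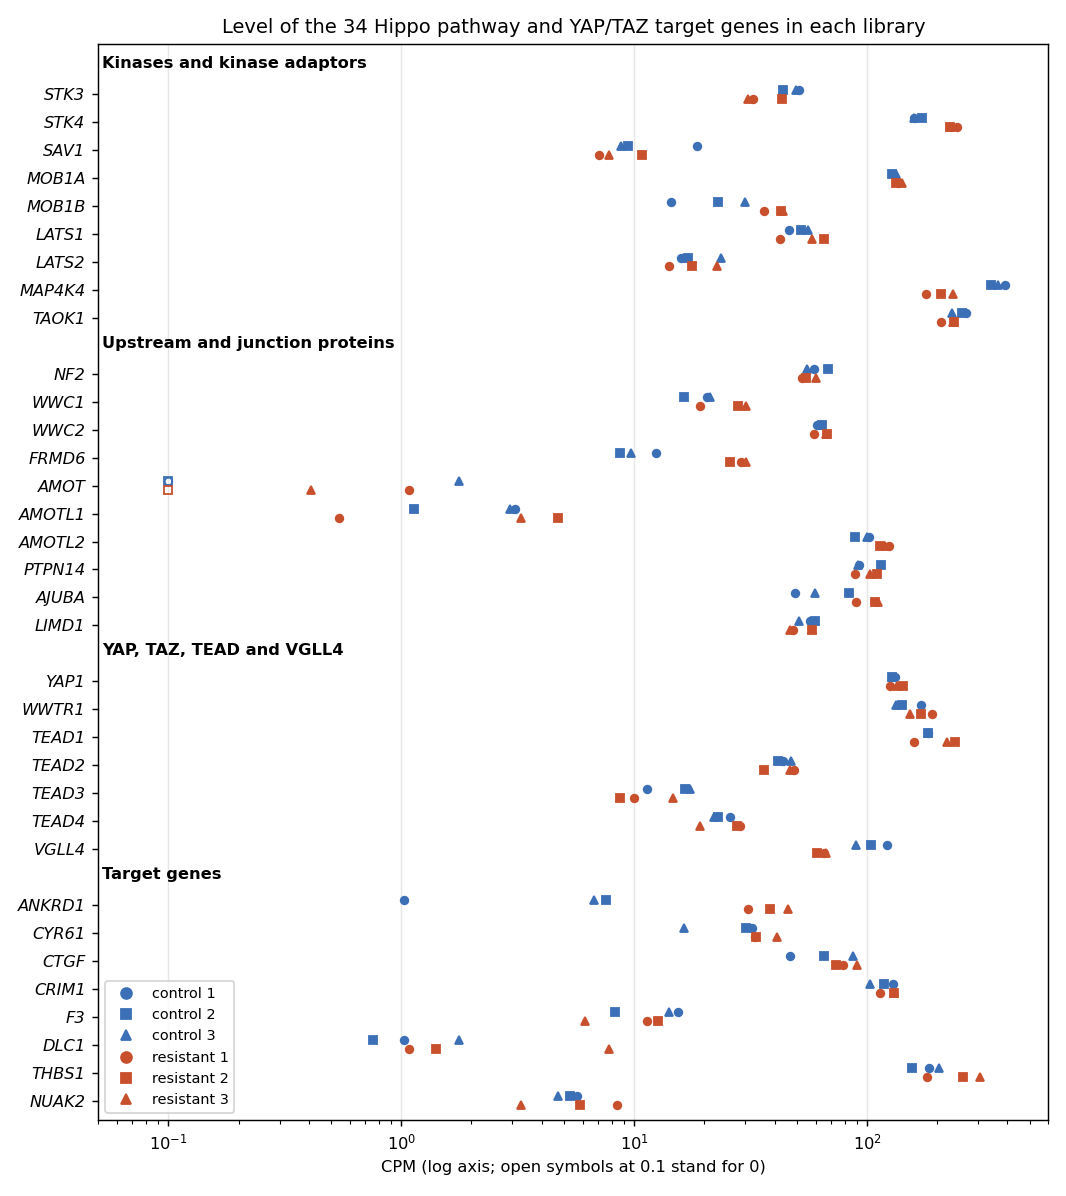
CPM (log axis) of the 34 genes in each library, blue for control and red for resistant, with circles, squares and triangles for replicates 1, 2 and 3; open symbols stand for 0. The red symbols of ANKRD1 (30.9 to 45.8 CPM) and FRMD6 (25.9 to 30.3 CPM) lie right of all blue ones, those of MAP4K4 and VGLL4 lie left, and DLC1 is high only in resistant replicate 3 (7.77 CPM).

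Of the 9 kinases and kinase adaptors, 2 were higher, 1 was lower and 6 were not called. The share called was 33.3%, against 24.1% of all tested genes. STK4, the kinase at the head of the core cascade, was at 159, 171 and 158 CPM in control replicates 1, 2 and 3 and at 244, 226 and 227 CPM in resistant replicates 1, 2 and 3. The lowest resistant library exceeded the highest control library. STK4 rose 1.43-fold by the means, from 163 ± 7.34 to 232 ± 10.2 CPM (log2FC 0.51, SE 0.10, adjusted p = 0.00017 in edgeR). Its paralog STK3 was at 50.9, 43.3 and 49.3 CPM in control and at 32.5, 43.3 and 30.7 CPM in resistant libraries. STK3 was not called (log2FC -0.42, 95% interval -0.77 to -0.07, adjusted p = 0.0736 in edgeR), although the groups did not overlap. Without resistant replicate 2, whose level nearly met that of control replicate 2, STK3 was called (log2FC -0.58, adjusted p = 0.0325 in edgeR). Without resistant replicate 3 its log2FC was -0.31 (adjusted p = 0.292 in edgeR).

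MOB1B, a coactivator that binds the LATS kinases, was at 14.4, 23.0 and 29.9 CPM in control and at 36.0, 42.8 and 43.6 CPM in resistant libraries. The groups did not overlap, with control replicate 1 lowest of all. MOB1B rose 1.82-fold, from 22.4 ± 7.78 to 40.8 ± 4.16 CPM (log2FC 0.82, SE 0.21, adjusted p = 0.00264 in edgeR). Its call was lost when control replicate 1 and resistant replicate 3 were left out together (log2FC 0.60, adjusted p = 0.0746 in edgeR). The close paralog MOB1A was more abundant and nearly level, at 130 ± 2.89 and 136 ± 4.02 CPM (log2FC 0.07, 95% interval -0.15 to 0.29).

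MAP4K4, a kinase that can phosphorylate LATS alongside the MST kinases and that also acts in JNK signalling, fell. Per kb of transcript it had the highest mean of the 34 genes in control cells, 47.7 CPM per kb. It was at 389.7, 339 and 364 CPM in control libraries, and was at 179, 207 and 234 CPM in resistant libraries. The lowest control library lay well above the highest resistant one. MAP4K4 was 1.76-fold lower by the means, 364 ± 25.5 against 207 ± 27.3 CPM (log2FC -0.81, SE 0.10, adjusted p = 7.49e-08 in edgeR). TAOK1, a kinase upstream of the MST kinases, was at 251 ± 16.6 and 226 ± 15.9 CPM (log2FC -0.14, 95% interval -0.34 to 0.06).

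LATS1 was at 51.3 ± 4.77 CPM in control cells and 55.1 ± 11.7 CPM in resistant ones (log2FC 0.10, 95% interval -0.23 to 0.42). LATS2 was at 18.8 ± 4.09 and 18.1 ± 4.34 CPM (log2FC -0.05, 95% interval -0.57 to 0.47). These intervals leave room for changes of either sign in LATS2. SAV1, the scaffold that joins the MST kinases to LATS, had 18.5 CPM in control replicate 1 and 7.04 to 10.8 CPM in the other libraries (log2FC -0.46, 95% interval -1.19 to 0.28). It rested on 116 counts in control and 110 in resistant libraries.

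**Figure D2:**
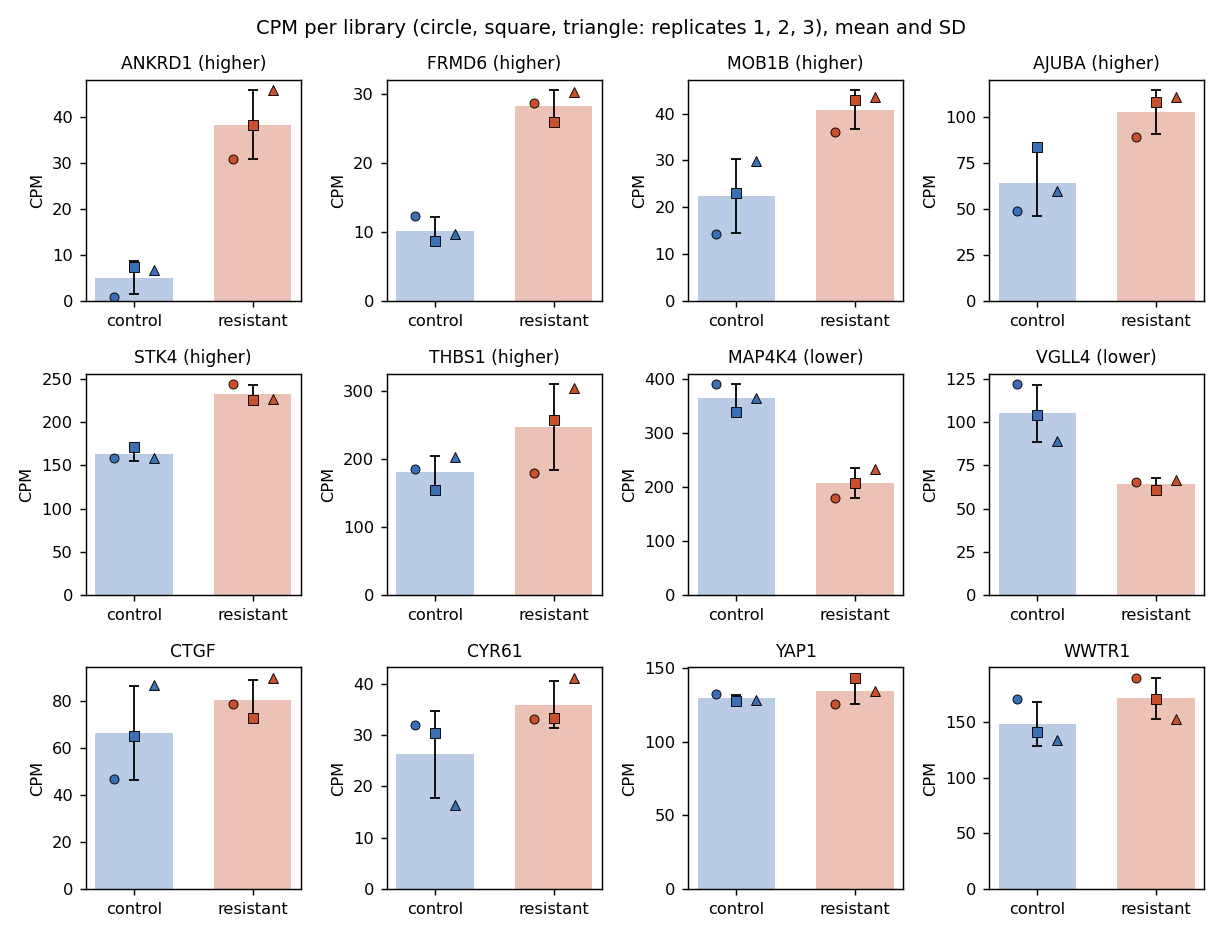
CPM in each library for the 8 called genes and for CTGF, CYR61, YAP1 and WWTR1; bars are means, error bars SD (n = 3), and symbols the libraries. ANKRD1, FRMD6, MOB1B, AJUBA and STK4 have all resistant libraries above control, MAP4K4 and VGLL4 have all below, and THBS1 overlaps because resistant replicate 1 (179.7 CPM) lies within the control range.

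Upstream and junction proteins pass cell contact and cytoskeletal tension to the kinases. Of these 10 genes 2 were higher, 7 were not called and 1 was not tested. In edgeR, DESeq2 or limma-voom 0 were lower, and 0 were lower at an unadjusted p under 0.05 in edgeR. The share of tested genes called was 22.2%, near the 24.1% of all tested genes. FRMD6, a FERM-domain protein related to fly Expanded that promotes Hippo signalling, was at 12.3, 8.66 and 9.68 CPM in control libraries and at 28.7, 25.9 and 30.3 CPM in resistant libraries. The gap between the groups was larger than the range within either. FRMD6 rose 2.76-fold, from 10.2 ± 1.90 to 28.3 ± 2.24 CPM (log2FC 1.51, SE 0.25, adjusted p = 1.67e-05 in edgeR).

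AJUBA, a LIM-domain scaffold that restrains LATS at junctions, was at 48.8, 83.6 and 59.8 CPM in control and at 89.3, 108 and 111 CPM in resistant libraries. Control replicate 2 came close to resistant replicate 1, and the groups did not overlap. AJUBA rose 1.60-fold, from 64.1 ± 17.8 to 103 ± 11.8 CPM (log2FC 0.64, SE 0.15, adjusted p = 0.00101 in edgeR). It was not called when control replicate 1 and resistant replicate 3 were left out together (log2FC 0.46, adjusted p = 0.063 in edgeR). The related LIM protein LIMD1 was at 55.8 ± 4.6 and 51.0 ± 6.20 CPM (log2FC -0.13, 95% interval -0.45 to 0.18).

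AMOTL2, an angiomotin that binds YAP and is also its target, was at 102, 88.9 and 99.7 CPM in control and at 125, 114 and 119 CPM in resistant libraries. The groups did not overlap, but the difference narrowly missed the threshold (log2FC 0.31, SE 0.12, adjusted p = 0.0503 in edgeR). It was called with limma-voom (adjusted p = 0.0379), with halved counts (0.0407 in edgeR) and with a filter of 1 CPM in 3 libraries (0.044 in edgeR). Summed over 3 libraries, AMOT had 6 counts in each group, and AMOTL1 had 22 in control and 38 in resistant cells, so AMOTL2 made up 98.5% of the family's level per kb in both groups. AMOT was not tested, and AMOTL1 was not called (log2FC 0.37, 95% interval -1.04 to 1.78).

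NF2, or merlin, the membrane protein lost in neurofibromatosis, was at 60.8 ± 6.67 and 55.6 ± 4.07 CPM (log2FC -0.13, 95% interval -0.43 to 0.17). Its partner WWC1, or KIBRA, was at 19.4 ± 2.59 and 25.8 ± 5.84 CPM (log2FC 0.44, 95% interval -0.03 to 0.91). WWC2 was at 62.8 ± 1.45 and 64.2 ± 4.27 CPM, and PTPN14, a phosphatase that binds YAP, at 99.0 ± 13.1 and 100.5 ± 10.5 CPM. The log2FC intervals were -0.25 to 0.32 for WWC2 and -0.24 to 0.27 for PTPN14, so neither was called and both intervals held 0.

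**Figure D3:**
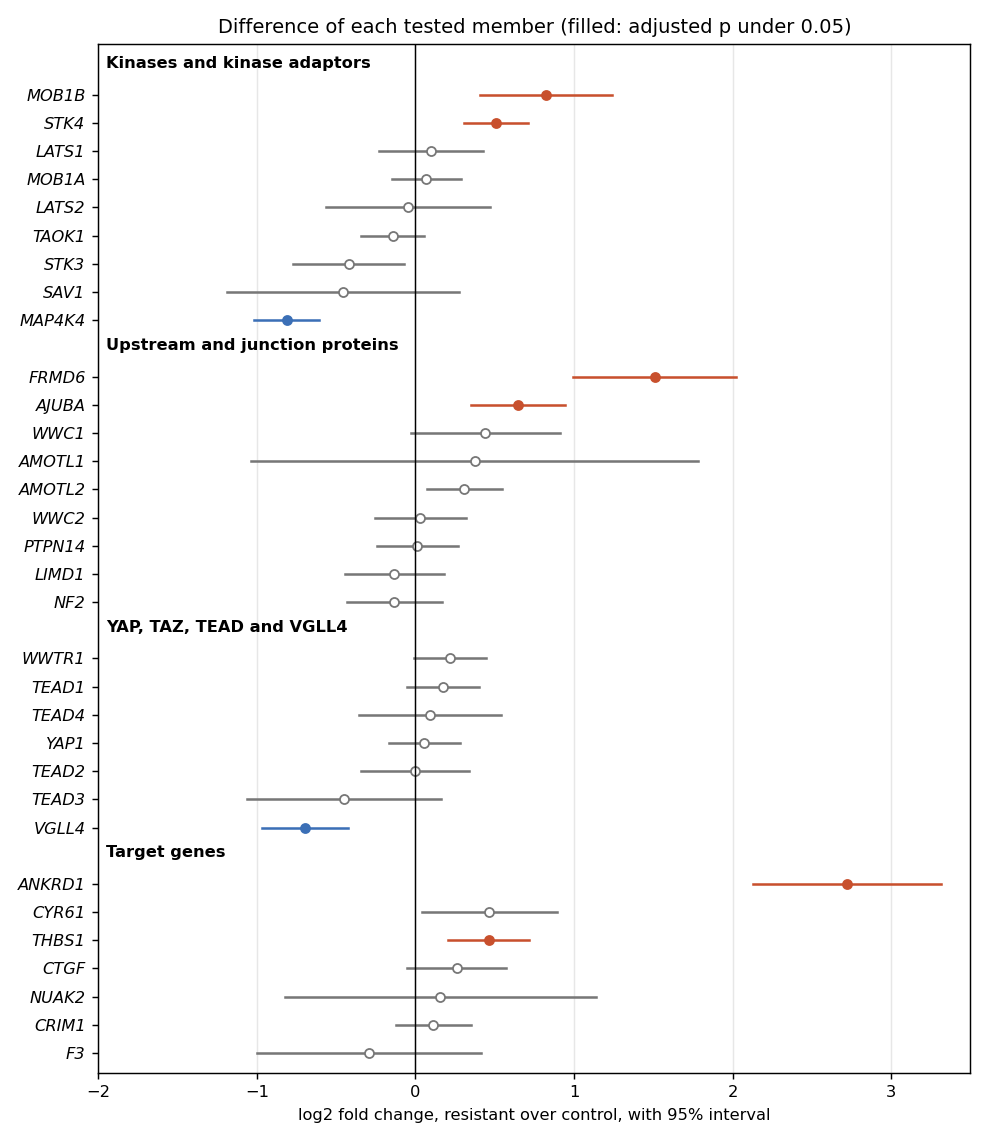
log2FC (resistant over control) of the 32 tested genes with 95% intervals, by role; filled points passed an adjusted p of 0.05, red higher and blue lower. ANKRD1 (2.72) and FRMD6 (1.51) stand furthest to the right and MAP4K4 (-0.81) and VGLL4 (-0.70) furthest to the left among called genes, while the intervals of YAP1, WWTR1 and the 4 TEAD genes all include 0.

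Among the transcriptional effectors and their antagonist, 0 of 7 genes were higher in edgeR, DESeq2 or limma-voom, and 1, VGLL4, was lower. At an unadjusted p under 0.05 in edgeR 0 were higher. The share called was 14.3%, against 24.1% of all tested genes. VGLL4 competes with YAP and TAZ for TEAD and represses their targets. It was at 122, 104 and 89.2 CPM in control libraries and at 65.5, 60.7 and 66.5 CPM in resistant libraries. The lowest control library exceeded the highest resistant one, and the resistant libraries were tightly grouped. VGLL4 was 1.63-fold lower by the means, 105 ± 16.4 against 64.2 ± 3.12 CPM (log2FC -0.70, SE 0.13, adjusted p = 0.000121 in edgeR). Of its exonic bases in GENCODE 29, 22.1% overlap the opposite-strand gene ATG7, and the use of strand in counting is not given. ATG7 itself was level, at 71.0 and 73.4 CPM (log2FC 0.04, adjusted p = 0.861 in edgeR).

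YAP1 was at 132, 128 and 128 CPM in control and at 125, 143 and 134 CPM in resistant libraries. The groups overlapped, and the log2FC was 0.06 with a 95% interval of -0.17 to 0.28. WWTR1 was at 170.2, 140.5 and 133 CPM in control and at 189, 171 and 153 CPM in resistant libraries, again with overlap (log2FC 0.22, 95% interval -0.01 to 0.45, adjusted p = 0.165 in edgeR). Without control replicate 1 and resistant replicate 3, WWTR1 was called (log2FC 0.40, adjusted p = 0.0405 in edgeR). Leaving out 1 library at a time gave WWTR1 0.15 to 0.32. Per kb of transcript, YAP1 formed 45.0 ± 2.73% of the YAP1 and WWTR1 total in control and 42.3 ± 3.70% in resistant cells.

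TEAD1 had the highest mean per kb of the TEAD genes, at 21.5 ± 0.0616 CPM per kb in control and 24.2 ± 4.91 CPM per kb in resistant cells. TEAD2 followed at 18.0 ± 1.17 and 18.0 ± 2.82 CPM per kb, then TEAD4 at 13.9 ± 1.14 and 14.8 ± 3.0 CPM per kb, and TEAD3 was lowest at 5.05 ± 1.10 and 3.74 ± 1.06 CPM per kb. In control libraries this order held without overlap between neighbours. In resistant libraries TEAD1 (18.7 to 28.1 CPM per kb) overlapped TEAD2 (14.7 to 19.97 CPM per kb), and TEAD2 overlapped TEAD4 (11.4 to 16.8 CPM per kb). The TEAD1 level had hardly any spread in control, 182 to 183 CPM, while resistant replicate 1 had 159 CPM and resistant replicates 2 and 3 had 238 and 219.7 CPM. The log2FC of TEAD1 was 0.17 (95% interval -0.06 to 0.40), and 0.34 without resistant replicate 1, where it was called (adjusted p = 0.0187 in edgeR). Leaving out 1 library at a time gave TEAD1 0.064 to 0.34. The 95% intervals were wider than that of TEAD1 for TEAD2 (-0.34 to 0.34), TEAD4 (-0.36 to 0.54) and TEAD3 (-1.06 to 0.16).

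**Figure D4:**
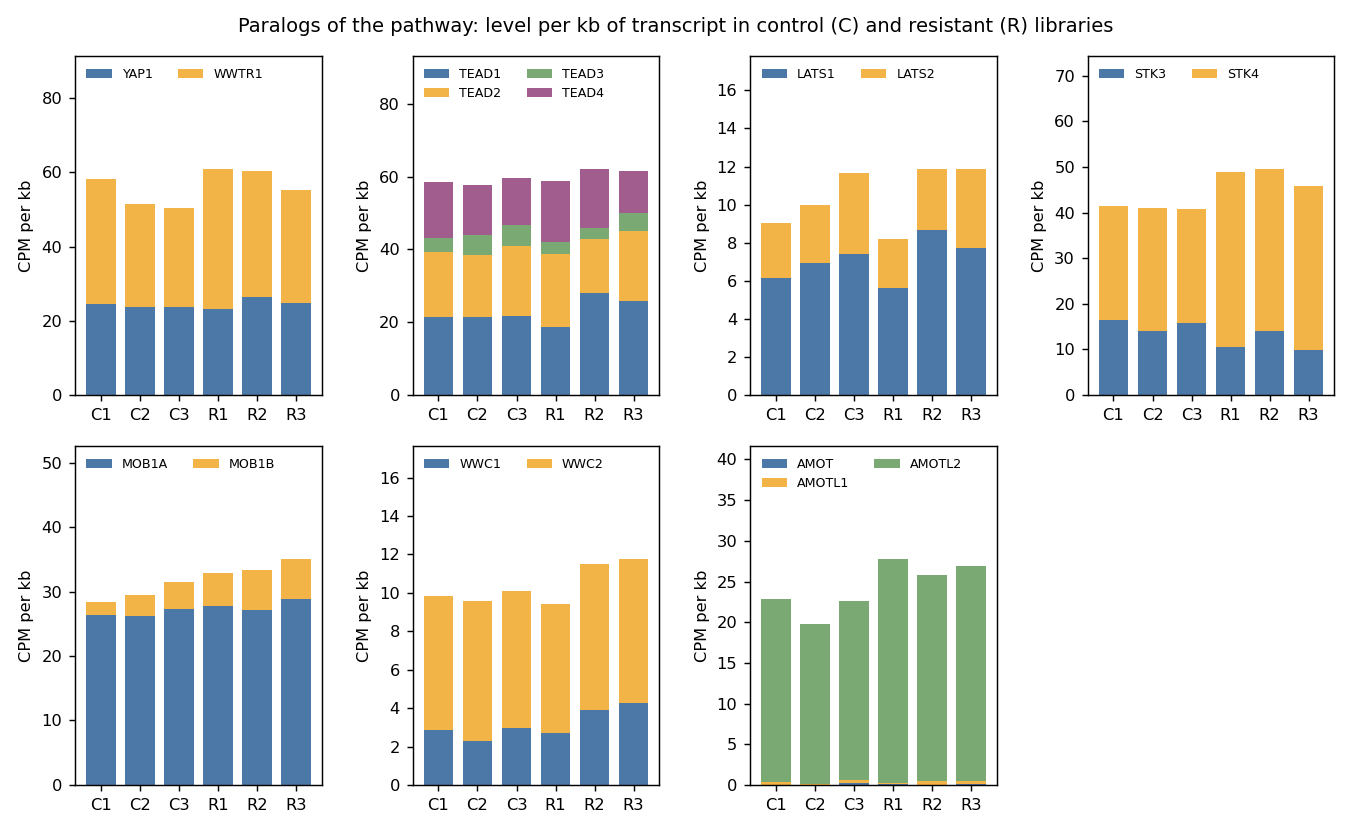
CPM per kb of transcript in each control (C1 to C3) and resistant (R1 to R3) library, stacked over the paralogs of 7 families. STK4 takes a larger part of the STK3 and STK4 bar in resistant libraries (71.9 to 78.6%) than in control (60.5 to 65.9%), as does MOB1B of its pair (15.7 to 18.5% against 7.29 to 13.6%), while AMOTL2 makes up nearly all of its family.

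Shares within a family do not depend on scaling between libraries. Per kb, STK4 made up 62.5 ± 2.99% of the STK3 and STK4 total in control and 76.3 ± 3.84% in resistant cells. MOB1B made up 10.7 ± 3.19% of the MOB1A and MOB1B total in control and 17.3 ± 1.45% in resistant cells. For both shares the groups did not overlap, and the exact two-sided permutation test gave p = 0.1, the smallest that 3 against 3 libraries can give (adjusted p = 0.6 over the 12 shares computed). The other 10 shares overlapped between groups. LATS2 was 33.1 ± 3.01% and 31.0 ± 3.91% of the LATS total, and WWC2 was 72.4 ± 3.05% and 67.1 ± 3.87% of the WWC1 and WWC2 total. The summed STK3 and STK4 level was 40.8 to 41.4 CPM per kb in control and 45.7 to 49.5 CPM per kb in resistant libraries, with no overlap between the groups.

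TEAD factors bind the letters GGAATG, and the sequences before the start sites of ANKRD1, CTGF and THBS1 are shown because they are the targets among the 34 that were called or are standard YAP readouts and whose windows hold these letters. These are 250 bases upstream of the RefSeq start on GRCh38.p14, written along the gene's strand, with GGAATG in capitals. ANKRD1 is chr10:90921088-90921337 on the minus strand, CTGF chr6:131951373-131951622 on the minus strand, and THBS1 chr15:39580829-39581078 on the plus strand.
ANKRD1: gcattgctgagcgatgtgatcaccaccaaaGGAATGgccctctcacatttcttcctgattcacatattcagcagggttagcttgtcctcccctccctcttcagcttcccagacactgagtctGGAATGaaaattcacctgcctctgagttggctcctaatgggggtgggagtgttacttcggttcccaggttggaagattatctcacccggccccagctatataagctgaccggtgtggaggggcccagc
CTGF: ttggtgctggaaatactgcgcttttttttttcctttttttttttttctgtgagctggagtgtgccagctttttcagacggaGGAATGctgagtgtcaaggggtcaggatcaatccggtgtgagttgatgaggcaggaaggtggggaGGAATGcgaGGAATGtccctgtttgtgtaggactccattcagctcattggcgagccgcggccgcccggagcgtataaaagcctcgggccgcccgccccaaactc
THBS1: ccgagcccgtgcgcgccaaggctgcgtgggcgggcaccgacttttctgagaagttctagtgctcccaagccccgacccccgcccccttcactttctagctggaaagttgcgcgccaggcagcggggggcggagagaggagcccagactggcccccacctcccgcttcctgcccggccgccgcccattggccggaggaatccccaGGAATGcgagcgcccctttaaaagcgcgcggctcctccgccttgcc

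The ANKRD1 sequence holds the motif 2 times, that of CTGF 3 times and that of THBS1 1 time. A search of both strands in windows of 300 bases (250 before to 50 after a start) found GGAATG in 14.0% of all 35116 RefSeq windows. Of the 34 genes 27 had windows, 40 in all, and 10 of these windows held the motif (25.0%), each from a different gene. Those genes were AJUBA, AMOTL2, ANKRD1, CTGF, LATS2, NUAK2, PTPN14, THBS1, WWC2 and YAP1. CYR61 was not among them, and whether it had a window is not given here. The AP-1 motif TGANTCA, searched on both strands, was in 4 of the 40 windows (10%) and in 7.71% of all. Of the 27 genes searched, ANKRD1 held both motifs, and they did not overlap. A match is a description of the letters and not a measured site.

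Of the 8 target genes, 2 were higher, 5 were not called and 1 was not tested. In edgeR, DESeq2 or limma-voom 0 were lower, and 0 were lower at an unadjusted p under 0.05 in edgeR. The share of tested targets called was 28.6%, near the 24.1% of all tested genes. ANKRD1, an ankyrin-repeat protein that acts in muscle and wound repair as a transcriptional cofactor, was at 1.03, 7.53 and 6.75 CPM in control libraries (2, 40 and 23 counts). In resistant libraries it was at 30.9, 38.3 and 45.8 CPM (114, 163 and 224 counts). The lowest resistant library was far above the highest control library, and control replicate 1 was lowest. The rise was 7.51-fold by the means, or 2.72 on the log2 scale (SE 0.29, adjusted p = 2.87e-09 in edgeR). Over the libraries left out in turn, its log2FC ranged from 2.42 to 3.08.

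CTGF and CYR61, secreted matricellular proteins used as standard readouts of YAP, differed far less. CTGF was at 46.8, 65.3 and 86.8 CPM in control and at 79.0, 73.1 and 90.0 CPM in resistant libraries, with control replicate 3 inside the resistant range. Its log2FC was 0.26 (95% interval -0.05 to 0.57, adjusted p = 0.232 in edgeR), and 0.50 without control replicate 3, where it was called (adjusted p = 0.0343 in edgeR). Leaving out 1 library at a time gave CTGF 0.11 to 0.50, and its lowest log2FC over the 17 alternatives was 0.015. CYR61 was at 31.9, 30.3 and 16.4 CPM in control and at 33.0, 33.4 and 41.1 CPM in resistant libraries. All resistant libraries of CYR61 lay above control, by a small margin over control replicate 1, and it was not called (log2FC 0.47, 95% interval 0.04 to 0.89, adjusted p = 0.107 in edgeR). Without control replicate 3, its lowest library, the log2FC was 0.23 (adjusted p = 0.5 in edgeR). The 95% intervals of both lay wholly below that of ANKRD1, which began at 2.13. The difference between these genes was not tested.

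THBS1, or thrombospondin-1, an extracellular matrix glycoprotein that activates latent TGF-beta, was at 185, 155 and 203 CPM in control and at 179.7, 257 and 305 CPM in resistant libraries. Resistant replicate 1 fell within the control range and resistant replicate 3 was highest. THBS1 passed the test with 181 ± 24.0 and 247 ± 63.3 CPM, 1.37-fold (log2FC 0.46, SE 0.13, adjusted p = 0.00571 in edgeR). Without resistant replicate 3, the library with the highest endothelial marker sum, the log2FC was 0.29 and the call was lost (adjusted p = 0.116 in edgeR). It was also lost without control replicate 2 (log2FC 0.35, adjusted p = 0.0891 in edgeR) and without control replicate 1 and resistant replicate 3 together (0.30, adjusted p = 0.174 in edgeR).

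DLC1, a gene named for its deletion in liver cancer, was at 1.03, 0.753 and 1.76 CPM in control libraries and at 1.08, 1.41 and 7.77 CPM in resistant libraries. Only resistant replicate 3 was high, with 38 of the 48 resistant counts. DLC1 was not tested, and without a filter its log2FC was 1.57 (SE 0.84, adjusted p = 0.24 in edgeR). The endothelial sum was highest in the same library, although PECAM1, one of its 6 genes, was at 43.2 CPM in control replicate 1 and 41.7 CPM in resistant replicate 3. The part of these markers in the DLC1 and THBS1 values was not tested. CRIM1, a transmembrane protein that binds BMPs, was at 116 ± 13.2 and 125 ± 9.89 CPM (log2FC 0.11, 95% interval -0.12 to 0.35). F3, or tissue factor, the starter of coagulation, was at 12.6 ± 3.79 and 10.1 ± 3.47 CPM (log2FC -0.29, 95% interval -1.0 to 0.42). NUAK2, a kinase of the AMPK family, was at 5.21 ± 0.484 and 5.85 ± 2.56 CPM (log2FC 0.16, 95% interval -0.82 to 1.14).

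Other genes of the pathway, in 5 lists also chosen with earlier results of these data known, are described for context. Of 20 tested YAP and TAZ targets outside the 34 genes, 7 were higher and 6 lower, 65% called against 24.1% of all tested genes, with a median log2FC of 0.23. The list was chosen with earlier results of these data known, so the gap between these shares cannot be read as a result about the targets. The higher ones included AXL, a receptor kinase (log2FC 1.57, SE 0.10), the actin regulator CDC42EP3 (0.81, SE 0.12), the membrane-repair protein MYOF (0.61, SE 0.09), the ectonucleotidase NT5E (0.55, SE 0.13) and the matrix protein TGFBI (0.40, SE 0.11). The lower ones included CCDC80 (-1.92, SE 0.28), the IGF-binding protein IGFBP3 (-1.78, SE 0.25), the EGF-receptor ligand AREG (-1.21, SE 0.11), the apoptosis inhibitor BIRC5 (-0.71, SE 0.12) and ARHGAP29 (-0.45, SE 0.10). These 10 were picked for groups that did not overlap. EDN1 (0.54) and GADD45A (-0.37) were also called, and are named here after their values were seen. FSTL1, picked out after its values were seen, was called higher, at 31.3 CPM in resistant replicate 3 and 1.89 to 7.2 CPM in the other libraries.

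Of 21 tested kinases, adaptors and members of STRIPAK, the phosphatase complex that switches off the MST kinases, 3 were higher and 3 lower. The share called was 28.6%, near the 24.1% of all tested genes. BTRC, the ubiquitin ligase subunit that marks phosphorylated YAP and TAZ for degradation, rose from 29.4 ± 3.88 to 56.7 ± 11 CPM (log2FC 0.93, SE 0.18). RASSF1, a partner of the MST kinases (log2FC 0.91, SE 0.21), and MOB4, a STRIPAK subunit (0.70, SE 0.21), were also higher. MINK1 (-0.52, SE 0.14) and MAP4K2 (-0.99, SE 0.37), which belong to the same kinase family as MAP4K4, were lower. The third lower gene was SLMAP, a STRIPAK adaptor (-0.44, SE 0.13, adjusted p = 0.0114 in edgeR), whose groups overlapped and which is named after its values were seen. Of these, MOB4 lost its call without control replicate 2 or resistant replicate 3 (adjusted p = 0.0521 and 0.0565 in edgeR), and MINK1 without control replicate 1 (0.0507 in edgeR). MAP4K2 lost its call in DESeq2 (adjusted p = 0.0998), with either other filter (0.0523 and 0.0507 in edgeR) and in 5 of the 6 edgeR fits without 1 library, with adjusted p up to 0.168.

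Of 15 tested polarity and junction genes, 3 were lower in edgeR, and 0 were higher in edgeR or limma-voom against 1 in DESeq2 and 1 at an unadjusted p under 0.05 in edgeR. In edgeR the share called was 20%, against 24.1% of all tested genes. FAT1, a giant protocadherin that activates Hippo signalling, fell from 820 ± 64.5 to 433 ± 67.9 CPM (log2FC -0.92, SE 0.10). The polarity protein LLGL2 had a log2FC of -0.60 (SE 0.17). Leaving out control replicate 3 ended that call (adjusted p = 0.114 in edgeR). CDH1, or E-cadherin, was called lower on control replicate 1, at 41.1 CPM there against 10.5 and 11.1 CPM in the other control libraries and 7.04 to 10.3 CPM in resistant libraries. Without control replicate 1 its log2FC was -0.28 (adjusted p = 0.665 in edgeR), and it was not called in DESeq2 (0.0587), in limma-voom (0.182) or without resistant replicate 1 (0.0865 in edgeR). Leaving out control replicate 1 and resistant replicate 3 together ended the calls of MOB4, MINK1, MAP4K2, LLGL2, CDH1 and TGFBI, with edgeR adjusted p from 0.0556 for MOB4 to 0.683 for CDH1.

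Of 4 tested cofactors, RUNX1, a transcription factor that can bind YAP, was called higher (log2FC 0.50, SE 0.15). That call ended on leaving out control replicate 1, control replicate 3 or resistant replicate 2 (adjusted p = 0.0588, 0.0572 and 0.104 in edgeR). Of 11 tested genes of SRF and the actin cytoskeleton, a program that shares several targets with YAP, 2 were higher and 0 lower in edgeR, DESeq2 or limma-voom (1 was lower at an unadjusted p under 0.05 in edgeR). These were the focal adhesion protein VCL (log2FC 0.57, SE 0.10) and the cytoplasmic actin ACTG1 (0.39, SE 0.08). SRF itself was at 56.1 and 57.5 CPM (log2FC 0.03, SE 0.15). In edgeR 25% of the tested cofactors and 18.2% of the tested SRF and actin genes were called, against 24.1% of all tested genes.

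**Figure D5:**
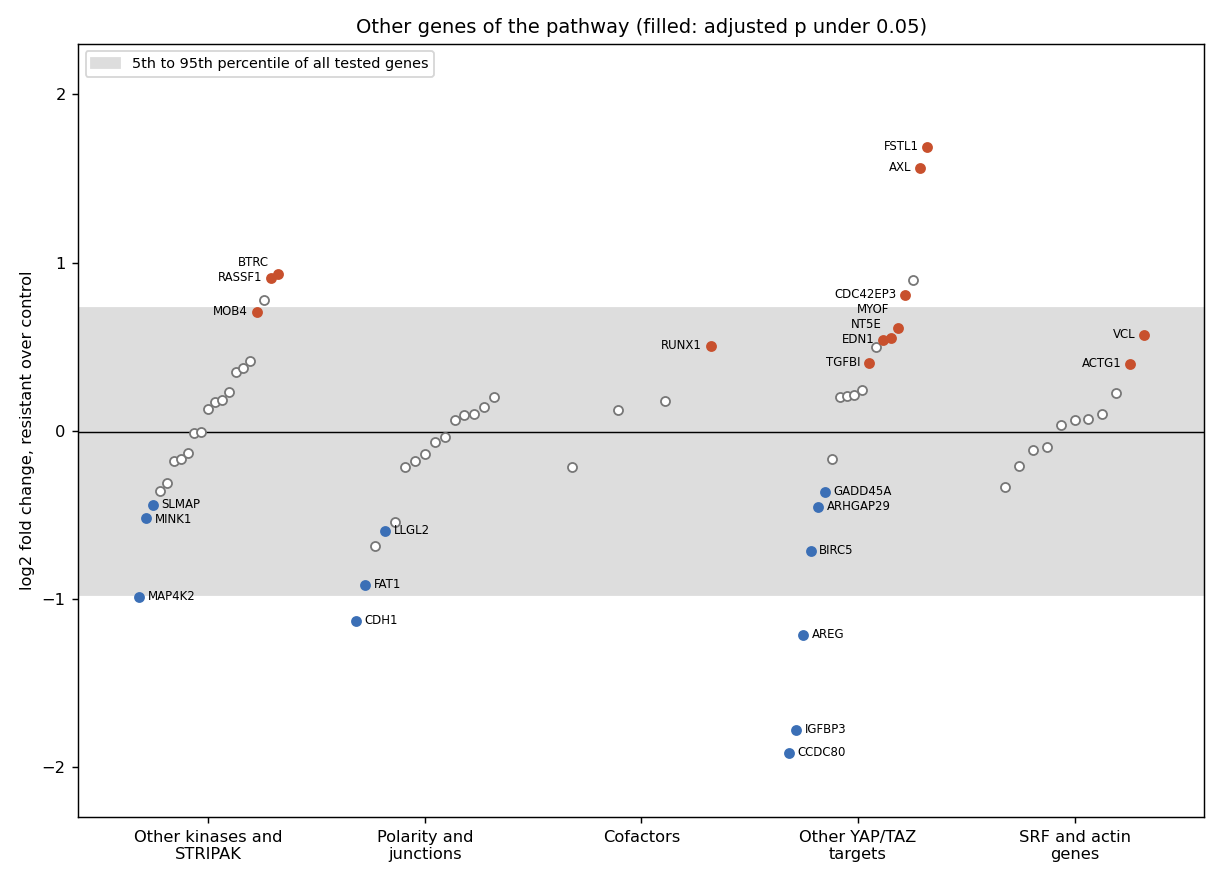
log2FC (resistant over control) of tested genes in 5 further lists, each point a gene, filled where the adjusted p was under 0.05 and named; the grey band is the 5th to 95th percentile of all tested genes (-0.98 to 0.73). The other YAP and TAZ targets spread from CCDC80 (-1.92) to FSTL1 (1.68), with called genes on both sides of 0.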

How the data were processed

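RNA-seq libraries of MHCC97H cells were labelled control or SR and numbered 1 to 3 in each group. The authors deposited raw counts, whole numbers listed by gene symbol, for 19202 genes. Trimmomatic, HISAT2 and Bowtie2 are named, without roles, in the submitters' processing notes. Which counter, genome build, annotation and strand setting were used is not stated by those sources. Counts in the table of the whole series equalled those of the 6 single libraries, and 27 symbols turned into dates were renamed from the Entrez ID. Of non-zero counts 63.6 to 69.1% were even, as when both mates are counted, so counting errors read from these values would be too small. With counts halved, chi-square over degrees of freedom was 1.78 to 2.86 between replicate libraries.

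Genes were filtered with filterByExpr, scaled by TMM and tested with edgeR 4.0.16 in R 4.3.3, in a model of group alone. The SE is the log2FC over the square root of F, and the 95% intervals use it with the moderated degrees of freedom. The common dispersion was 0.017 (biological coefficient of variation 13.0%). The test was checked on simulated counts. There it recovered 41.1% of 56 genes changed 1.5-fold, 76.1% of 71 changed 2-fold and 97.1% of 69 changed 4-fold. Of 149 calls 5 were false. Changes of 1.5-fold were thus often missed there, and recovery in the data, with 2601 calls, may differ. Transcript lengths, gene spans and overlaps are from GENCODE 29 (GRCh38), and CPM per kb divides by the longest coding transcript. At most 8.53% of the 50-base words of any of the 34 transcripts (SAV1) occurred in another gene. Promoter windows are from RefSeq (GRCh38.p14).

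The 34 genes, the lists and the tests were chosen with earlier results of these data known. Genes named were all 34 and, of each other pathway list, up to 5 called genes in each direction whose groups did not overlap, by smallest p. The most abundant gene of each marker list was KRT8, KDR (20.1 to 42.6 CPM), LUM (3.76 to 20.2 CPM) and PTPRC (1.88 to 5.41 CPM). The alternatives covered other tools (DESeq2 1.42.0 and voom in limma 3.58.1), scaling (RLE, library totals, upper quartile), 2 other filters, halved counts, a stricter adjusted p (0.01), a replicate block and the loss of each library in turn. Leaving out control replicate 1 with resistant replicate 3 was added after seeing the data. Figures were drawn with matplotlib 3.10.9.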

Additional observations from a re-analysis of the deposited data

How the results depend on the processing

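The counts of called genes among the 34 stayed within 1.5 times under all 17 alternatives, from 4 to 7 higher and from 2 to 3 lower. Leaving out 1 library at a time gave 5 to 7 higher and 2 to 3 lower among the 34, and 2001 to 2261 called genes in all. An adjusted p of 0.01 kept all 8 of the 34 and called 1651 of all tested genes. Of 543 values of the 32 tested genes under the alternatives, 510 kept direction and call, 5 lost a call, 7 gained one and 21 changed sign. AMOT and DLC1, which were not tested, gave no values to this tally. All 21 sign changes were in genes that were not called. PTPN14 had a log2FC of -0.010 with library totals, -0.0057 with limma-voom, -0.0054 with halved counts and -0.042 without control replicate 1 and resistant replicate 3. In that last setting WWC2 had -0.0018 and F3 0.14. TEAD2 had 0.0037 in DESeq2, 0.010 without a filter and 0.016 with 1 CPM in 3 libraries. Leaving out 1 library at a time gave -0.027 to 0.26 for LATS1, -0.24 to 0.15 for LATS2, -0.17 to 0.83 for AMOTL1, -0.048 to 0.14 for PTPN14, -0.069 to 0.13 for TEAD2 and -0.18 to 0.47 for NUAK2. The differences in share (resistant minus control, percentage points) ranged over -3.25 to 1.83 for TEAD2, -1.45 to 3.58 for TEAD4, -0.284 to 0.247 for AMOT, -0.407 to 0.502 for AMOTL1 and -0.381 to 0.555 for AMOTL2. The cause was not tested in any of these cases. Without division by length no share difference changed sign.

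The replicate numbers did not pair the samples: deviations of same-numbered libraries correlated at -0.015, 0.033 and -0.0065, and not every library correlated best with its own number. With the replicate block 2518 genes were called in all, with 6 higher and 2 lower of the 34. The median log2FC of all genes was -0.0060, against -0.0056 with RLE, -0.014 with upper quartiles and -0.028 with library totals. Depth limits AMOT, AMOTL1, DLC1 and NUAK2 most, with 6 to 72 counts over 3 libraries.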

Other observations

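Within 5 Mb on each side of WWC1 on chromosome 5, 12 of 20 tested genes were higher (60.0%), with a median log2FC of 0.53, close to the 0.44 of WWC1, which was not called. WWC1 is named here after these values were seen. Its window had the largest share of higher genes of those around the 32 tested genes. Windows around the other genes that were not called are left out. Around ANKRD1 on chromosome 10, 11 of 41 tested genes were higher (26.8%) and 2 lower, with a median log2FC of 0.25. The highest of these neighbours was IFIT3, an interferon-induced gene, at 1.63, below the 2.72 of ANKRD1. The YAP and TAZ target MYOF (0.61), at 93306429 to 93482317, was also among the higher neighbours, so the 2 targets share this window. Around VGLL4 on chromosome 3, 17 of 58 tested genes were lower (29.3%) and 4 higher. Their median log2FC was -0.23. Around MAP4K4 on chromosome 2, 3 of 41 were higher and 6 lower, and around FRMD6 on chromosome 14, 7 of 43 were higher and 4 lower. Around STK4, which was higher, 4 of 51 neighbours were higher and 12 lower, and around MOB1B, also higher, 1 of 28 was higher and 7 lower. Around AJUBA the counts were 4 higher and 6 lower of 60, and around THBS1 5 higher and 7 lower of 69. The background was 11.7% higher and 12.3% lower over all tested genes. These counts are descriptions without a test, and gene spans are from GENCODE 29, since the build of the counts is not given.

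Positions are for GRCh38 in GENCODE 29. ANKRD1 spans 90912096 to 90921276 of chromosome 10 (minus strand), and FRMD6 spans 51489100 to 51730727 of chromosome 14 (plus strand). MAP4K4 spans 101696850 to 101894689 of chromosome 2 (plus strand), and VGLL4 spans 11556070 to 11771350 of chromosome 3 (minus strand). STK4 spans 44966474 to 45079959 of chromosome 20 (plus strand), and MOB1B spans 70902326 to 71022449 of chromosome 4 (plus strand). AJUBA spans 22971174 to 22982642 of chromosome 14 (minus strand), and THBS1 spans 39581079 to 39599466 of chromosome 15 (plus strand). The span of MOB1B overlaps that of DCK on the same strand over 2.26% of its exonic bases, and DCK had a log2FC of 0.57 (adjusted p = 0.0518 in edgeR).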
